A study of Homo sapiens with 14 samples.

Results

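The valine, isoleucine and methionine transfer RNA (tRNA) genes of the human nuclear genome were examined for binding of RNA polymerase III and of the progesterone receptor (PR). They were taken from the RefSeq annotation of GRCh38 as the tRNA genes on chromosomes 1 to 22 and X whose symbols begin with TRV (valine), TRI (isoleucine, leaving out the TAT anticodon), TRM (elongator methionine) or TRX-CAT (initiator methionine). This gave 64 of 429 nuclear tRNA genes. The rule leaves out 2 genes with the symbol TRNAV-CAC and 1 with TRNAI-AAU, which are counted here among the other tRNA genes. By anticodon they were 10 TRV-AAC, 13 TRV-CAC, 5 TRV-TAC, 14 TRI-AAT, 3 TRI-GAT, 11 TRM-CAT and 8 TRX-CAT genes. The cells were T47D, an established breast cancer line with oestrogen and progesterone receptors, kept in medium with serum and insulin and given ethanol (vehicle, EtOH) or progesterone (P4) for 1 h. Chromatin immunoprecipitation sequencing was done with an antibody to PR and an antibody to POLR3A, which carries the catalytic centre of RNA polymerase III. There were 3 replicate libraries for each antibody and treatment and 1 pooled input for each treatment, 14 libraries in all.

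The values came as 4 lists of bound regions, 1 per antibody in each treatment. Replicates were not listed separately, so no spread between them could be computed. No test was run, and the main counts are set beside the same count over all 429 tRNA genes. A gene was counted as bound when a region reached the gene body or the 100 bp on either side by at least 1 bp. Where several regions could be read at a gene, the strongest was used. The −log10 q-value and the fold enrichment of a region are the authors' own values. They are used to order the regions of a list, and a difference in score from list to list is no measure of change. The lists differed in length, with 29161 regions for POLR3A under vehicle, 47904 for POLR3A under P4, 38933 for PR under vehicle and 111515 for PR under P4, and the depth of the libraries is unknown.

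As background, RNA polymerase III transcribes tRNA genes from promoters that lie inside the gene. The A box and the B box are bound by the factor TFIIIC, which places TFIIIB upstream of the gene, and TFIIIB recruits the polymerase. Methionine has separate tRNAs for its separate uses. Initiator tRNA is carried by the factor eIF2 to the small ribosomal subunit and reads the start codon, whereas elongator methionine tRNA reads all later methionine codons. Valine and isoleucine tRNAs with an AAC or AAT anticodon are altered by the ADAT2 and ADAT3 deaminase, which makes inosine in the anticodon. The symbols carry a transcript number and a copy number, and genes with the same transcript number encode the same mature tRNA.

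The RefSeq promoter windows of neighbouring genes held the whole body of TRI-AAT8-1 and 49 bases of TRI-AAT1-1. They also held 11 bases of TRV-CAC1-6 and 5 bases of TRM-CAT6-1, which are not shown. TRI-AAT8-1 and TRI-AAT1-1 are shown because both belong to the AAT isoleucine family and differed in POLR3A. TRI-AAT8-1 lies on chromosome 6 (27668583 to 27668656, GRCh38.p14, plus strand) and had POLR3A in both lists. TRI-AAT1-1 lies on the same chromosome (57800211 to 57800284) and had no region in any list. Bases 26 to 74 of the latter gene were held (57800236 to 57800284, plus strand). Capitals mark the A box, found in TRI-AAT8-1 at bases 8 to 19, and the B box, GGTTCGATCCC, which began at base 53 of both genes. Bases are counted from 1 at the 5′ end of the gene.
TRI-AAT8-1: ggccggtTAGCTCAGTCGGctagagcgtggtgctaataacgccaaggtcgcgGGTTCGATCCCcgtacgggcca
TRI-AAT1-1: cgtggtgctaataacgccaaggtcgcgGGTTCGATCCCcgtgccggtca
Over the 49 bases that could be compared the genes were alike at 46 and differed by A67G, G69C and C72T, with the base of TRI-AAT8-1 first. All 3 differences lay after the B box. At TRI-AAT8-1 the POLR3A region scored 325 with vehicle and 378 with P4, and its summit stood 29.5 and 20.5 bp from the middle of the gene. The first 25 bases of TRI-AAT1-1, where an A box would lie, were not analysed here. The B box was searched on both strands as GGTTCGA, any 2 bases and CC, a form chosen after the sequences were seen, which 65 of 35114 promoter windows of 300 bases held (0.185%). Neither gene held the stricter form GGTTCGA, any base and TCC, which 29 windows held (0.0826%).

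POLR3A was at 52 of the 64 genes under vehicle and at 53 under P4. Over all tRNA genes the shares were 82.3% under vehicle and 81.8% under P4, and those of the valine, isoleucine and methionine genes were 81.3% and 82.8%. Both lists held 51 of the genes (79.0% of all tRNA genes), and 10 were in neither (14.9%). The families differed in how many of their copies were bound. All 8 initiator methionine genes had POLR3A in both lists, as did 10 of the 11 elongator methionine genes. Among valine genes, 12 of 13 TRV-CAC genes had POLR3A in both lists, 8 of 10 TRV-AAC genes under vehicle and 9 under P4, and 4 of 5 TRV-TAC genes under vehicle and all 5 under P4. Of the AAT isoleucine genes, 10 of 14 were bound under vehicle and 9 under P4, and none of the 3 GAT isoleucine genes was in any list. When the summit had to lie within 100 bp of the gene body, the counts under vehicle and P4 were 7 and 7 for TRX-CAT and 10 and 10 for TRM-CAT. They were 8 and 8 for TRV-AAC, 10 and 11 for TRV-CAC, 3 and 4 for TRV-TAC and 8 and 7 for TRI-AAT.

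**Figure D1:**
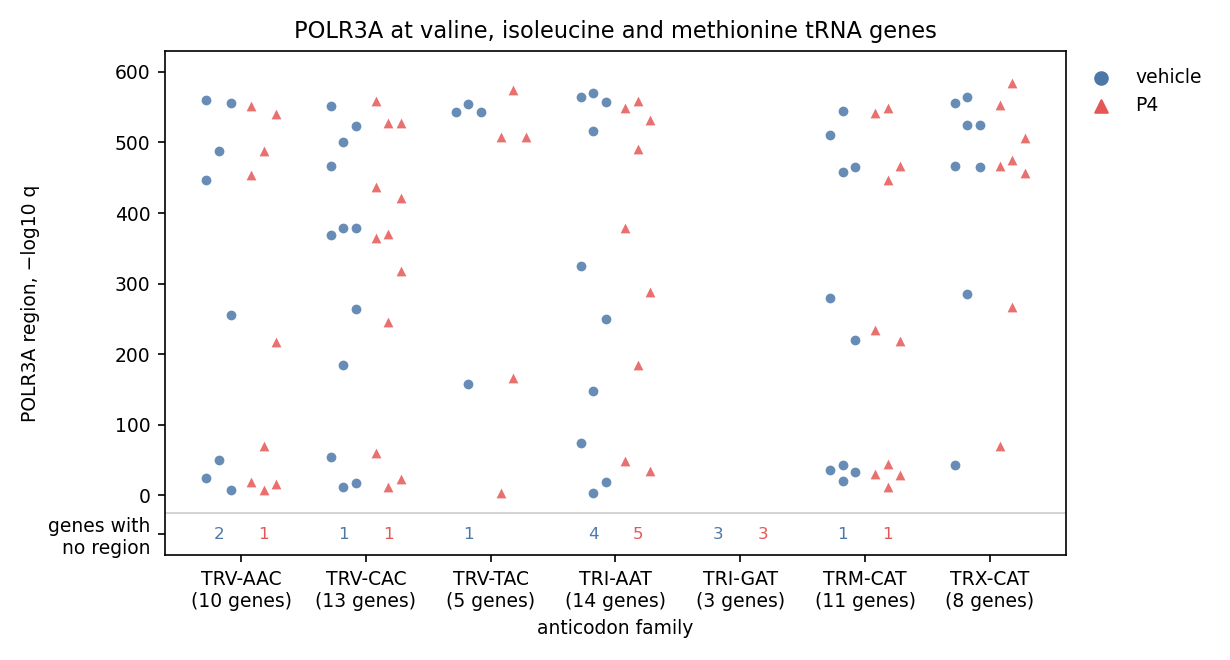
POLR3A regions at each gene by anticodon family. The vertical axis is the −log10 q of the strongest region at the gene, circles are vehicle and triangles P4, and the numbers in the bottom band count genes with no region. All 8 TRX-CAT genes have a region in both lists, and the 3 TRI-GAT genes have none.

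The strength of the regions spread widely within each family, as the plot by anticodon shows. Under vehicle the bound genes had a median −log10 q of 378 and a range of 3.53 to 569.6, and under P4 a median of 378 and a range of 3.72 to 584. Over all tRNA genes with a region the medians were 354 and 354. The median POLR3A region over all tRNA genes with a region stood at percentile 99.5 of the vehicle list and 99.7 of the P4 list, like that of these genes. The initiator methionine genes had a median of 496 under vehicle and 471 under P4, the elongator methionine genes 249.6 and 226, and the AAT isoleucine genes 287 and 378. The TRV-TAC genes had medians of 543 and 508, the TRV-CAC genes 374 and 368, and the TRV-AAC genes 351 and 217. The ranges of the families overlapped. In each list the family medians take in 6 genes whose POLR3A summit was nearest to a neighbouring tRNA gene, an initiator gene among them. Such values may belong to the neighbour. The TRV-TAC medians also count a region shared by neighbouring genes once for each. Medians without these values were not computed, so the families are not ranked here by strength.

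The 8 initiator genes, TRX-CAT1-1 to TRX-CAT1-8, encode the same mature tRNA, and 6 of them lie on chromosome 6. TRX-CAT1-1 on chromosome 1 (153671250 to 153671321) had POLR3A values of 564 under vehicle and 553 under P4. TRX-CAT1-2 had 555 and 507, TRX-CAT1-3 had 525 and 467, and TRX-CAT1-4 had 467 and 456. These 3 genes lie on chromosome 6 between positions 26286526 and 26330372. TRX-CAT1-8 on chromosome 17 (82494721 to 82494792) had 465 and 475. TRX-CAT1-6 had lower values, 285 and 267, and TRX-CAT1-5 (chromosome 6, 27332985 to 27333056) the lowest, 42.7 and 69.5. TRX-CAT1-7 was listed at 525 and 584, but the summit of its region lay 414.5 and 419.5 bp from its midpoint and nearest to the neighbouring glycine gene TRG-GCC2-3, so the score cannot be assigned to the initiator gene.

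A spread of this kind was found in other sets of copies with the same transcript name. There were 10 such sets with 39 genes. In the set TRV-CAC1, all 7 copies had POLR3A in both lists, from 11.6 (TRV-CAC1-2, chromosome 5, 181097070 to 181097142) to 524 (TRV-CAC1-1, chromosome 1, 161399700 to 161399772) with vehicle. Under P4 the same set spanned 12.1 to 528. The fold enrichment ranged from 5.87 to 75.4 in that set under vehicle. The highest fold was at TRV-CAC1-6, whose summit was nearest to the neighbouring TRR-ACG1-2, and the other 6 copies reached 66.5. In TRI-AAT5, the 5 copies ran from 73.6 (TRI-AAT5-3) to 569.6 (TRI-AAT5-4, chromosome 14, 102317092 to 102317165) under vehicle. In TRV-AAC1, 4 of 5 copies were bound under vehicle, from 50.6 to 557, and the fifth, TRV-AAC1-2, was in the P4 list alone. The 3 copies of TRM-CAT4 lay between 43.1 and 279 under vehicle. By contrast, the copies of TRM-CAT5 had 33.6 and 35.6, and those of TRV-TAC1 had 543 and 554. The treatment of reads that match several copies is not given in the sources used here, and its part in these values was not tested.

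**Figure D2:**
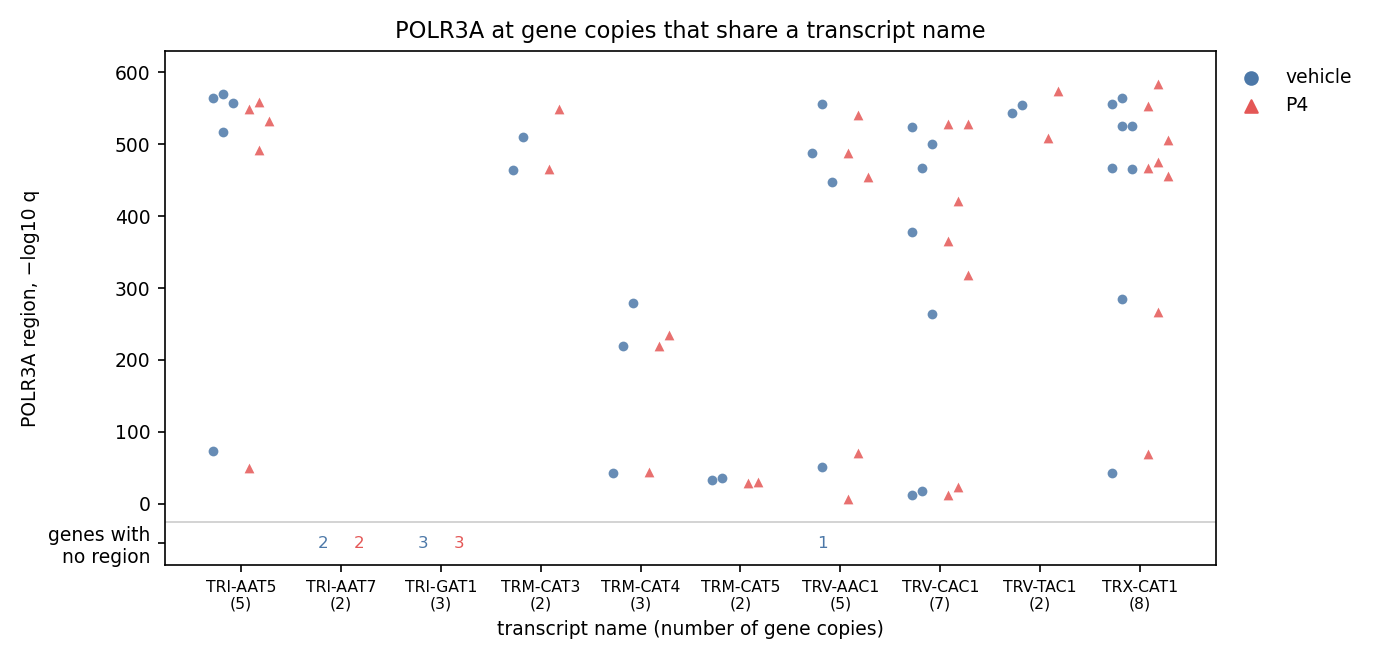
POLR3A regions at gene copies that share a transcript name. The vertical axis is −log10 q, circles are vehicle and triangles P4, the number of copies is in brackets, and the numbers in the bottom band count copies with no region. The copies of TRX-CAT1, TRV-CAC1, TRI-AAT5 and TRV-AAC1 spread over most of the axis.

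Genes at the ends of the range were as follows. Among the elongator methionine genes, TRM-CAT1-1 was highest under vehicle (chromosome 8, 123157230 to 123157302, 544 under vehicle and 542 under P4) and TRM-CAT2-1 lowest (chromosome 16, 71426493 to 71426565, 20.7 and 11.8). Among the valine genes, TRV-AAC2-1 (chromosome 5, 181188416 to 181188488) had 560.0 and 552, with the P4 summit 451 bp away and nearest to the neighbouring TRP-TGG3-1, and TRV-AAC5-1 (chromosome 6, 27235509 to 27235581) had 8.05 and 15.7. TRV-CAC3-1 on chromosome 19 (4724635 to 4724707) had 552 and 558, with the vehicle summit nearest to the neighbouring TRG-TCC1-1. TRV-TAC1-2 on chromosome X (18674909 to 18674981), 86 bp from an end of the coding gene PPEF1, had 554 and 574. TRV-TAC3-1 on chromosome 10 (5853711 to 5853783) had 158 and 166. The 10 bound elongator methionine genes lay in separate ranges under vehicle (grouped after their values were seen), with TRM-CAT1-1, TRM-CAT3-1, TRM-CAT3-2 and TRM-CAT6-1 at 458 to 544 and the other 6 at 20.7 to 279.

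The genes with POLR3A in a single list all had weak regions. TRI-AAT3-1 on chromosome 6 (27275211 to 27275284) was in the vehicle list alone, with a −log10 q of 3.53 and a fold of 3.99. TRV-AAC1-2 on chromosome 5 (181164154 to 181164226) was in the P4 list alone with 7.09 and a fold of 4.93, and TRV-TAC4-1 on chromosome 6 (27290626 to 27290698) with 3.72 and a fold of 3.81. That is 2 genes in the P4 list alone and 1 in the vehicle list alone, against 2.80% and 3.26% of all tRNA genes. The 10 genes with no POLR3A in either list were TRI-AAT1-1, TRI-AAT7-1, TRI-AAT7-2, TRI-AAT9-1, the 3 TRI-GAT1 genes, TRM-CAT7-1, TRV-AAC4-1 and TRV-CAC6-1. Of these, 7 lie on chromosome 6 and 3, the TRI-GAT1 genes, on chromosome X. None of the 10 had PR, and none lay within 1 kb of an end of a protein-coding gene. Over all tRNA genes, 64 had no POLR3A in either list. Of these, 22 lay on chromosome 6 and 0 within 1 kb of such an end. Over all tRNA genes, 14.7% were in no list.

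PR was at 7 of the 64 genes under vehicle and 14 under P4, where 12.8% and 26.1% of all tRNA genes had it. As shares the counts were 10.9% and 21.9%. Under both treatments 6 genes had PR, 8 had it under P4 alone (15.2% of all tRNA genes) and 1 under vehicle alone (1.86%), and 49 had it in neither list (72.0%). When the longer PR list was trimmed to the strongest regions, as many as the shorter list holds, PR was at 4 of the genes under P4 against 7 under vehicle, so the direction of the difference turned. Every gene with PR also had POLR3A under the same treatment, as did 55 of 55 tRNA genes with PR under vehicle and 111 of 112 under P4. The 6 genes with PR in both lists were in all 4 lists, against 11.0% of all tRNA genes. Of the 10 TRV-AAC genes, 4 had PR under P4 and none under vehicle. That count was 2 over gene bodies alone and 0 at a −log10 q of at least 10 or with lists of equal length, and with a flank of 500 bp it was 5 under P4 and 1 under vehicle. PR was at 2 of 8 initiator genes, 2 of 11 elongator methionine genes, 3 of 13 TRV-CAC genes, 2 of 5 TRV-TAC genes and 1 of 14 TRI-AAT genes under P4.

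The PR regions at these genes ranked lower in their lists than the POLR3A regions did in theirs. Their −log10 q ran from 1.41 to 7.14 under vehicle, with a median of 3.64, and from 2.37 to 71.5 under P4, with a median of 6.37. The fold enrichment ran from 2.31 to 4.83 and from 2.76 to 13.7. The median region stood at percentile 29.6 of the PR vehicle list and 60.6 of the PR P4 list, where POLR3A regions stood at 99.5 and 99.7 of theirs, and none of these genes was among the 500 strongest regions of a PR list. Over all tRNA genes with a region, the median percentiles were 31.2 and 59.9 for PR and 99.5 and 99.7 for POLR3A. Their median −log10 q of PR was 3.81 under vehicle and 6.20 under P4. The highest PR percentiles among the other tRNA genes were 99.75 and 99.79.

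The strongest PR region under P4 was at the elongator gene TRM-CAT1-1, which lies within the span of the coding gene TBC1D31. Its −log10 q was 6.13 under vehicle and 71.5 under P4, with folds of 3.59 and 13.7. The summit was 144 bp from the middle of the gene with vehicle and 232 bp with P4. TRI-AAT5-5 on chromosome 17 (8187593 to 8187666), 679 bp from an end of BORCS6, had 7.14 under vehicle and 49.4 under P4. Its POLR3A region was 2449 bp wide under vehicle, reached 4 tRNA genes and had its summit nearest to TRS-GCT4-3. TRV-CAC1-5 on chromosome 5 (181222395 to 181222467), 814 bp from an end of TRIM41, had PR values of 1.61 and 24.6. The summit lay 530 bp from its midpoint under vehicle, nearest to TRK-CTT2-3, and 30 bp under P4.

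**Figure D3:**
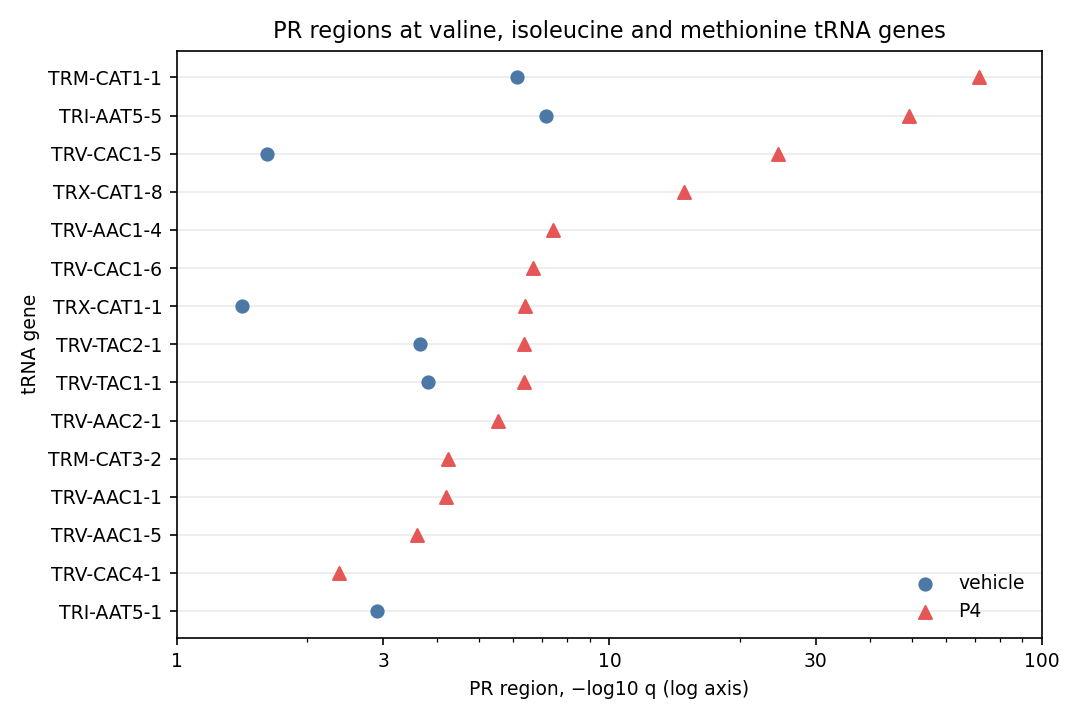
PR regions at the 15 genes with PR in either list. The horizontal axis is the −log10 q on a log scale, circles are vehicle and triangles P4, and a missing symbol means no region. The 6 genes with both symbols have the P4 symbol to the right, and TRI-AAT5-1 has a vehicle symbol alone.

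PR was at 2 of the 8 initiator genes. TRX-CAT1-8, 4184 bp from an end of NARF, had PR under P4 alone, with a −log10 q of 14.9 and a summit 198.5 bp from its midpoint. TRX-CAT1-1 stands 257 bp from an end of the coding gene ILF2 and had PR in both lists, 1.41 under vehicle and 6.39 under P4. The vehicle region (153670111 to 153671160) ended before the gene body, with its summit 291.5 bp from the gene's midpoint. The P4 region (153670821 to 153671418) covered the gene, and its summit stood 6.5 bp from the gene's middle and 12 bp from the POLR3A summit. The RefSeq promoter window of ILF2 fills the space next to this gene and is shown for that reason (chromosome 1, 153670944 to 153671243, GRCh38.p14, minus strand, read from 250 bases before the annotated start of ILF2 to 50 bases after it). Base 1 is the base nearest to the tRNA gene, and the vehicle summit of PR fell on base 250 of the window. Capitals mark the one match to the hormone response half-site TGTTCT, which reads AGAACA on this strand.
ILF2 window: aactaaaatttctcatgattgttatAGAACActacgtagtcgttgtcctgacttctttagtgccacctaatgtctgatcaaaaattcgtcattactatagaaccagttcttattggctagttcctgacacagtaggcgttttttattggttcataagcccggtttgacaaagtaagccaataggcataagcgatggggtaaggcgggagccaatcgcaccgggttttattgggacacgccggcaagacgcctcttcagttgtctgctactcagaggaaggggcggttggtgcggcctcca
The half-site began at base 26, and the window held no match to the full progesterone response element (GNACA, any 3 bases and TGTNC) or to TATAAA. Searched on both strands, the half-site was in 14.8% of 35114 windows of 300 bases, the full element in 0.390% and TATAAA in 11.5%. The promoter window of HMGN4, which reaches TRV-CAC1-6, was searched in the same way. It held no match to the half-site, the full element or TATAAA.

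The other genes with PR were as follows. TRV-TAC1-1 and TRV-TAC2-1 on chromosome 11 (59550629 to 59551059) are neighbours and shared a region in each POLR3A list and in the PR P4 list. Under vehicle they were reached by different PR regions, at 3.80 and 3.64, and the region at TRV-TAC2-1 also reached the neighbouring TRR-TCT3-2 and had its summit nearest to it. The shared P4 region had 6.36, with its summit 7 bp from the midpoint of TRV-TAC1-1. TRI-AAT5-1 on chromosome 6 (26554122 to 26554195) had PR under vehicle alone, at 2.90, with the summit 5.5 bp from its midpoint, and the nearest PR region under P4 lay 14515 bp away. Among genes with PR under P4 alone, TRV-AAC1-4 had 7.39, TRV-CAC1-6 6.65, TRV-AAC2-1 5.53, TRM-CAT3-2 4.23, TRV-AAC1-1 4.18, TRV-AAC1-5 3.58 and TRV-CAC4-1 2.37. The regions at TRV-AAC2-1 and TRV-AAC1-5 stopped 57 and 67 bp from the gene body and were counted through the 100 bp flank. Of the 50 genes without PR under P4, 7 had a PR region of that list within 500 bp, and 38 had none within 1 kb. These counts were not made over all tRNA genes, so they are not read as a trait of these genes. Genes with POLR3A in both lists and no PR had a median gap to the nearest P4 region of PR of 3184.5 bp. Over all tRNA genes of that kind it was 5200.5 bp.

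With the flank of 100 bp, PR was found where POLR3A was strong. The 14 genes with PR under P4 had POLR3A values under P4 of 421 to 553, with a median of 508. For 4 of them, TRV-AAC2-1, TRV-CAC1-6, TRV-TAC2-1 and TRI-AAT5-5, the POLR3A summit was nearest to another tRNA gene, so the value may belong to that gene. The other 10 had 437 to 553. The 36 genes with POLR3A in both lists and no PR had values of 11.8 to 584, with a median of 240.2, so the ranges overlapped. With limits set after the values were seen, PR under P4 was at 14 of 26 genes with a POLR3A −log10 q of 400 or more, 53.8%, at 0 of 12 genes between 100 and 400 and at 0 of 15 genes below 100. Without genes whose POLR3A summit was nearest to another tRNA gene, an alternative chosen after the data were seen, the counts were 10 of 21, 0 of 11 and 0 of 15. With a flank of 500 bp the lower bands were not empty. PR under P4 then also reached TRV-CAC1-4, TRV-TAC3-1 and TRV-AAC1-2, with POLR3A values under P4 of 365, 166 and 7.09. It further reached TRV-CAC1-1, TRI-AAT5-2, TRM-CAT3-1 and TRI-AAT5-4, with 528, 559, 466 and 532. Over the other tRNA genes the same bands gave 85 of 136 genes, or 62.5%, 10 of 67, or 14.9%, and 2 of 95, or 2.11%. Strong POLR3A was also found without PR. TRV-TAC1-2 and TRI-AAT5-2, named after their values were seen, had POLR3A values of 574 and 559 under P4 and no PR within the flank of 100 bp. The nearest PR region under P4 lay 25051 bp from TRV-TAC1-2 but only 219 bp from TRI-AAT5-2.

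**Figure D4:**
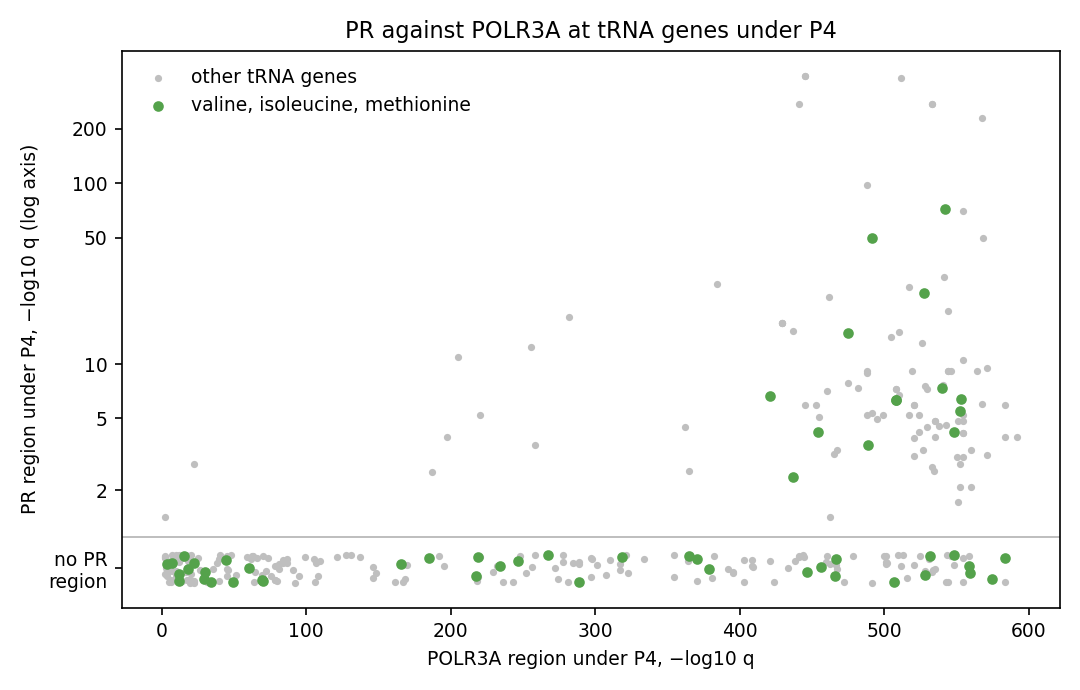
PR against POLR3A under P4 at tRNA genes with POLR3A. The horizontal axis is the −log10 q of the POLR3A region and the vertical axis that of the PR region on a log scale, with genes without PR in the bottom band. Green points are valine, isoleucine and methionine genes and grey points other tRNA genes, and all 14 green points with PR lie to the right of 400.

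PR calls and the strength of POLR3A differed with the position in the genome. Of the 64 genes, 34 lie on chromosome 6, and under P4 PR was at 3 of them against 11 of the 30 elsewhere. Over all tRNA genes it was at 17 of 154 on chromosome 6 and 95 of 275 elsewhere. POLR3A under P4 was at 26 of the 34 genes and had a median of 240.2 on chromosome 6, and it was at 27 of the 30 others, with a median of 454. Among all tRNA genes, POLR3A was at 127 of 154 and 224 of 275, nearly the same share, with medians of 246 on chromosome 6 and 443 elsewhere. Near ends of protein-coding genes lay 8 of the 64 genes, within 1 kb. All 8 had POLR3A in both lists, against 43 of the 56 farther away. Over all tRNA genes, POLR3A was in both lists at 53 of 55 genes within 1 kb and at 286 of 374 farther away. PR under P4 was at 4 of the 8 genes, against 10 of the 56 farther away. Over all tRNA genes, PR under P4 was at 30 of 55 genes within 1 kb of an end and at 82 of 374 farther away. POLR3A under P4 had a median of 530 at these genes within 1 kb of an end and 289 farther away. Over all tRNA genes the medians were 512 and 272. POLR3A strength thus differed both by chromosome and by distance to coding genes. How chromosome and distance went together was not computed, and their separate parts were not tested.

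On chromosome 5, 8 valine genes lie within the stretch from 181097070 to 181222467. In chromosomal order their POLR3A values under vehicle were 11.6 (TRV-CAC1-2), 18.1 (TRV-CAC1-3), no region (TRV-AAC1-2), 50.6 (TRV-AAC1-3), 378 (TRV-CAC1-4), 560.0 (TRV-AAC2-1), 488 (TRV-AAC1-4) and 467 (TRV-CAC1-5). The last 3 were those with PR under P4. All 8 had POLR3A under P4, at 12.1, 22.7, 7.09, 70.5, 365, 552, 540.1 and 528 in the same order, where the 552 of TRV-AAC2-1 has its summit at TRP-TGG3-1.

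POLR3A summits lay on the genes and PR summits beside them. The POLR3A summit was inside the gene body at 44 of 52 genes under vehicle and 43 of 53 under P4, with median distances from the midpoint of 15.8 and 16.0 bp. At 6 genes in each list the summit was nearest to a neighbouring tRNA gene that shared the region. Over all tRNA genes with POLR3A, the summit was inside the gene body at 267 of 353 and 268 of 351. Their median distances were 19 and 18.5 bp. The PR summit was inside the gene body at 1 of 7 genes under vehicle, TRI-AAT5-1, and at 4 of 14 under P4, TRX-CAT1-1, TRV-AAC1-1, TRV-CAC1-5 and TRV-TAC1-1, with median distances of 175 and 208 bp. Over all tRNA genes with PR it was inside the gene body at 8 of 55 and 11 of 112, with median distances of 158 and 186 bp. PR and POLR3A summits at the same gene were a median of 409 bp apart under vehicle, from 3 to 582 bp, and 198.5 bp under P4, from 1 to 965 bp. They were within 100 bp of each other at 1 of 7 genes under vehicle and 5 of 14 under P4. The medians over all tRNA genes with both factors were 190 and 249 bp, the opposite order, and the summits were within 100 bp at 15 of 55 and 24 of 111 genes.

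**Figure D5:**
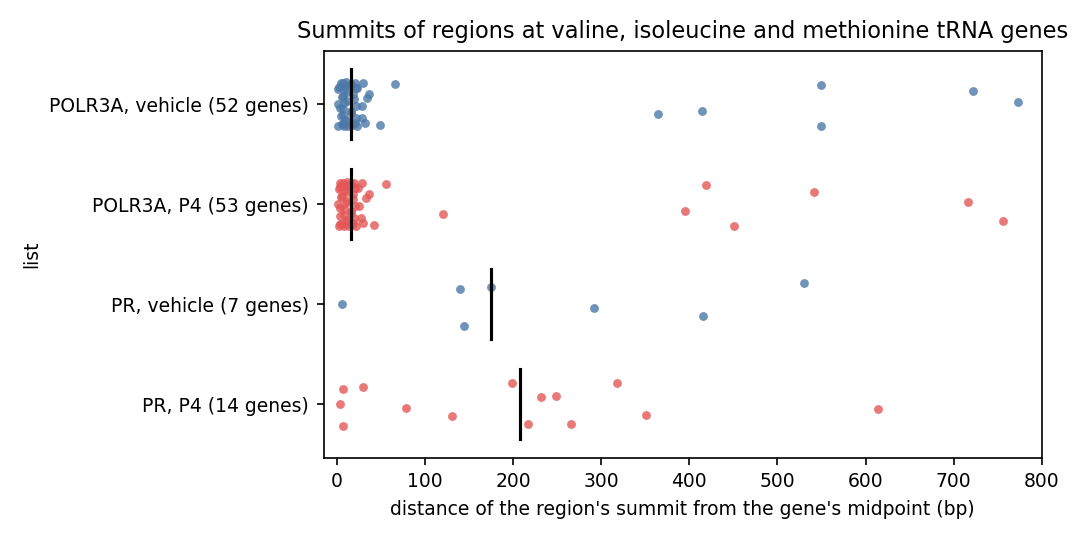
Distance of region summits from the gene's midpoint in bp for the genes with a region in each list. Each point is a gene, blue for vehicle and red for P4, and the black bar is the median. POLR3A medians are 15.8 and 16.0 bp and PR medians 175 and 208 bp.

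Protein-coding genes that act with these tRNAs, or with the matching tRNAs of mitochondria, were read for regions in the gene span and 5 kb on each side. The 19 genes listed included cytosolic synthetases, which charge these tRNAs, scaffold proteins of the synthetase complex, the eIF2 subunits and enzymes that modify these tRNAs. The rest were mitochondrial synthetases, which charge the separate tRNAs of mitochondria, and MTFMT, which formylates methionine tRNA there. POLR3A was at 17 of them under vehicle and 15 under P4, where 48.9% and 54.4% of all 19821 protein-coding genes had it. PR was at 12 and 16, against 50.7% and 76.2% of all. No POLR3A region at these genes reached a −log10 q of 10, which 3.99% and 3.52% of all coding genes did, whereas the valine, isoleucine and methionine tRNA genes reached 569.6 and 584. PR regions reached that value at 6 and 11 of the 19, against 22.3% and 45.6%. Within 1 kb of a gene end, POLR3A was at 14 and 13 of the 19 (30.8% and 33.6% of all) and PR at 10 and 16 (23.9% and 50.2%). Gene length was not matched in these counts.

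PR was at all 3 cytosolic synthetases under both treatments, with the strongest region at 3.46 with vehicle and 6.59 with P4 for VARS1 (valine), 4.76 and 39.9 for IARS1 (isoleucine), and 6.54 and 13.7 for MARS1 (methionine). Their mitochondrial counterparts VARS2 had 60.1 and 166 and IARS2 had 4.54 and 11.3, and MARS2 had no region in any list. Of the scaffold genes, AIMP2 had 20.2 and 165 and AIMP1 had 2.98 and 8.14. The eIF2 subunit genes EIF2S1 and EIF2S2 had 132 and 216, and 6.10 and 24.3. Among the modifying enzymes, PR was under both treatments at TRMT61A, the catalytic subunit of the enzyme that methylates adenosine in the T loop (142 and 286), at the RNA cytosine methyltransferase gene NSUN2 (67.7 and 162) and at ADAT3 (17.0 and 117). EEF1E1, EIF2S3, TRMT6 and TRDMT1 had PR under P4 alone. ADAT2 had POLR3A under vehicle alone, at 8.05, and MTFMT was in no list.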

How the data were processed

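Per the labels, chromatin of T47D cells was sheared by sonication and sequenced. The submitters' processing notes name cutadapt, Bowtie2, MACS2 and hg38, with no role or setting, so how replicates were pooled, which control was used and how reads matching several gene copies were treated is not given in the sources used here. Reads of near-identical tRNA copies can be placed at the wrong copy, and neighbouring genes can share a region. The authors deposited 4 region lists with a fold enrichment (a ratio), a −log10 q-value and the summit's offset per region. In the deposited lists the offset is in bp and not normalised. The files hold no read counts.

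Genes came from the RefSeq table of GRCh38.p14, kept per chromosome up to the point where starts first fell back. The table gives no strand or exons, and the sequence tables held no tRNA entries, so sequence was read from promoter windows of neighbouring genes. Overlap counts equalled those of bedtools 2.31.1 for 4 of 4 lists, and all 20 simulated lists gave the right genes. Python 3.11.15 with pandas 2.3.3 was used. Percentiles are the share of a list's regions at or below a region's −log10 q.

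The text names all initiator genes, the highest and lowest POLR3A gene of each other family under vehicle, every gene with PR under vehicle, the 10 with the strongest PR under P4, and those with POLR3A in 1 list or none. The members and lists were chosen with earlier results of these data known.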

Additional observations from a re-analysis of the deposited data

How the results depend on the processing

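Counts of genes with POLR3A stayed between 46 and 52 under vehicle and between 47 and 53 under P4 in all 8 alternatives. Counts for PR depended on the threshold and on list length. At a −log10 q of at least 5, PR was at 2 genes under vehicle, 0 genes had PR under vehicle alone, 1 gene had POLR3A under P4 alone and 0 under vehicle alone. At a −log10 q of at least 10, PR was at 0 genes under vehicle and 4 under P4, with 4 under P4 alone, 0 under vehicle alone and a net gain of 4, and POLR3A was at 1 gene under P4 alone and 0 under vehicle alone. With summits within 100 bp of the gene body, PR was at 1 and 6 genes, and 2 genes had POLR3A under vehicle alone. With lists cut to equal length, PR was at 4 genes under P4, 1 gene had it under P4 alone and 4 under vehicle alone, so the net gain of 7 turned to -3. With a flank of 500 bp, 13 genes had PR under P4 alone, a net gain of 12. The cause was not tested.

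Under vehicle the median PR percentile was 36.3 by fold and 30.3 over gene bodies alone. With near summits 1 gene remained under vehicle, TRI-AAT5-1, at percentile 17.4. Under P4 the median PR percentile was 63.6 by fold and 61.6 over gene bodies. Taking the summit nearest to each gene up to 500 bp, median distances under vehicle and P4 were 14 and 14.5 bp for POLR3A and 233 and 240.2 bp for PR. Up to 200 bp they were 12.5 and 13.5 bp for POLR3A, and 142 bp over 4 genes and 30 bp over 7 genes for PR. At the partner genes, a −log10 q of at least 10 left 0 with POLR3A in either list and 6 with PR under vehicle. No paired analysis was possible because each list joins all replicates, and for the same reason no replicate could be left out. Depth is unknown.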
